A study of Mus musculus with 2 samples.

Results

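The genes described here are the 10 that encode the mouse transforming growth factor beta (TGF-β) ligands (Tgfb1, Tgfb2 and Tgfb3), their receptors (Tgfbr1, Tgfbr2 and Tgfbr3) and the latent TGF-β binding proteins (Ltbp1, Ltbp2, Ltbp3 and Ltbp4), out of 28380 genes listed in the series. They were taken by symbol, and all 10 were found in both libraries. The libraries were single-cell RNA-seq of non-haematopoietic cells of femur and tibia from C57BL/6 mice at postnatal day 30, with 1 Control and 1 Dach1OE library, each of 2 pooled mice per the study's methods and of both sexes per the labels. Control cells had the genotype Dach1OE +/f, a transgene without Cre, and Dach1OE cells the genotype Apj CreERT2 - Dach1OE +/f, in which a tamoxifen-inducible Cre under Apj (Aplnr), a gene of capillary endothelium, switches on Dach1. Both groups received tamoxifen. Epiphyses had been removed and blood cells depleted with a lineage kit and then by CD45 and CD117, so the blood cells below are those that passed the depletion. The methods name an R26-mT/mG reporter in this cross that the labels leave out.

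The tables held 28720 Control cells with 143986818 unique molecular identifiers (UMIs, each a captured RNA molecule) and 32028 Dach1OE cells with 166999989 UMIs. After the study's filters on genes and mitochondrial UMIs, 26466 and 29317 cells remained, and 86.2% and 82.7% of them were assigned to 1 of 6 classes by marker genes, none of them 1 of the 10 genes. There were 9170 Control and 9371 Dach1OE cells of the endothelium (ECs), 5694 and 4495 mesenchymal stromal cells of bone (BMSCs, here with osteoblasts and osteocytes), 3893 and 5502 chondrocytes, 970 and 1837 mural cells, 557 and 424 fibroblasts, and 2531 and 2602 blood cells. Of the 8 markers of each class list, all were more than 1.5-fold higher in their class than in the other cells in both libraries. The exceptions, with 7, were metaphyseal stromal cells in both libraries, marrow stromal cells and tendon in Dach1OE, and pericytes in Control. Cells were assigned by these same markers, so this describes the classes only. The libraries shared 1049 cell indices. Levels are CPM, the UMIs of a gene scaled to a total of 1000000 UMIs in a cell group, with exact Poisson 95% intervals, which cover counting error only. Dach1 checked the labels, and its UMIs in ECs numbered 165 in Control and 6278 in Dach1OE (5.20 and 197 CPM). It was at 4.03 and 5.39 CPM in BMSCs, 2.86 and 4.12 in chondrocytes, 4.82 and 11.4 in mural cells and 18.6 and 18.9 in blood cells. Fibroblasts had 4 and 6 UMIs. Whether stray RNA of ECs adds to these values was not tested. With 1 library per group no test was made. A gene counts as past the limit where the libraries differed at least 1.5-fold and the 95% interval of the log2 ratio, Dach1OE over Control, left out 0.

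TGF-β is secreted as a latent complex, in which the propeptide stays wrapped around the growth factor and is usually tied to an LTBP, which anchors it to fibrillin microfibrils of the matrix. Once freed, the ligand binds TGFBR2, which recruits and phosphorylates TGFBR1, and Smad proteins carry the signal to the nucleus, while TGFBR3 (betaglycan) presents ligand and is of most use to TGF-β2. Bone matrix is a large store of latent TGF-β, released when bone is resorbed, and the pathway couples resorption to formation and takes part in recruiting mural cells to vessels.

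The ligand genes Tgfb1 and Tgfb2, which were highest in different cell classes, are shown by the 120 bases before their transcription starts, because they differ in the letters of the core promoter. Both are RefSeq promoter windows of build GRCm38.p6, written 5′ to 3′ on the gene's strand, with the motifs TATAAA and GGGCGG, searched on either strand, in capitals. Of the 10 genes, 8 had a RefSeq promoter entry, with Tgfb3 and Tgfbr3 as the others. Tgfb1 lies at chr7:25687002-25705077 on the plus strand and the bases shown at chr7:25686882-25687001. Tgfb2 lies at chr1:186622792-186705989 on the minus strand and the bases shown at chr1:186705990-186706109.
Tgfb1: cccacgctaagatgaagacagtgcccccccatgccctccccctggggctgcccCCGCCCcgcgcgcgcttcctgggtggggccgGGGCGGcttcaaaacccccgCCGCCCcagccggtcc
Tgfb2: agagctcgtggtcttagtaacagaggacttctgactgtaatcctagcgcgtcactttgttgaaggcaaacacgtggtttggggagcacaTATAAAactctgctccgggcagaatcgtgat
In the 250 bases upstream of Tgfb1 there were 5 matches to GGGCGG on either strand, 3 of them in the bases shown, none to TATAAA, and a G and C content of 75.2%. The same window of Tgfb2 held 1 TATAAA, which starts 31 bases before the transcription start, no GGGCGG, and a G and C content of 53.6%. Among all 32851 promoter windows of that length, 12.4% held TATAAA and 32.7% held GGGCGG on either strand. A match is a description of the letters only.

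Tgfb1 was highest in ECs and blood cells, and Tgfb2 and Tgfb3 in mural cells. Tgfb1, the form most studied in immunity and fibrosis, was at 41.8 CPM (95% interval 39.6 to 44.1) in Control ECs and 39.2 (36.2 to 42.4) in Control blood cells, levels whose intervals overlapped, and at most at 16.4 in the other 4 classes. In Dach1OE the order was the same, with 40.1 in ECs, 33.6 in blood cells and 10.8 to 17.4 elsewhere. Among blood cells, megakaryocyte-lineage cells, the source of platelets and of the TGF-β1 these store, held 113 CPM in Control and 105 in Dach1OE, against 15.2 and 14.5 in erythroid cells.

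Tgfb2 was highest in mural cells, at 195 CPM in Control and 184 in Dach1OE. Chondrocytes followed at 154 and 119, and fibroblasts at 110 and 162, so that these classes changed places between the libraries and, in Dach1OE, the intervals of mural cells (171 to 196) and fibroblasts (144 to 182) overlapped. An antisense gene and a snoRNA overlap it. It was at 23.2 and 19.6 in BMSCs and 15.2 and 41.4 in ECs, and in blood cells at 2.36 and 2.80, the lowest of the 6 classes. Within mural cells, Tgfb2 was at 195 and 142 in smooth muscle cells and 204 and 212 in pericytes. Within chondrocytes it was at 126 and 120 in the upper growth plate group, 174 and 140 in the prehypertrophic group and 197 and 151 in the hypertrophic group.

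Tgfb3 (chr12:86056745-86079041, minus strand), which overlaps Ttll5 on the other strand, was highest in mural cells (159 and 132 CPM in Control and Dach1OE). Fibroblasts held 91.1 and 84.9, BMSCs 39.9 and 32.7, chondrocytes 17.6 and 16.8, ECs 3.69 and 3.64, and blood cells 0.497 and 1.46. Smooth muscle cells (209 and 167) were above pericytes (101 and 116) in both libraries. In chondrocytes the highest level of Tgfb3 was in the hypertrophic group, which makes the matrix that bone replaces, at 71.3 and 78.4, against 14.7 and 11.2 in the prehypertrophic group.

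**Figure D1:**
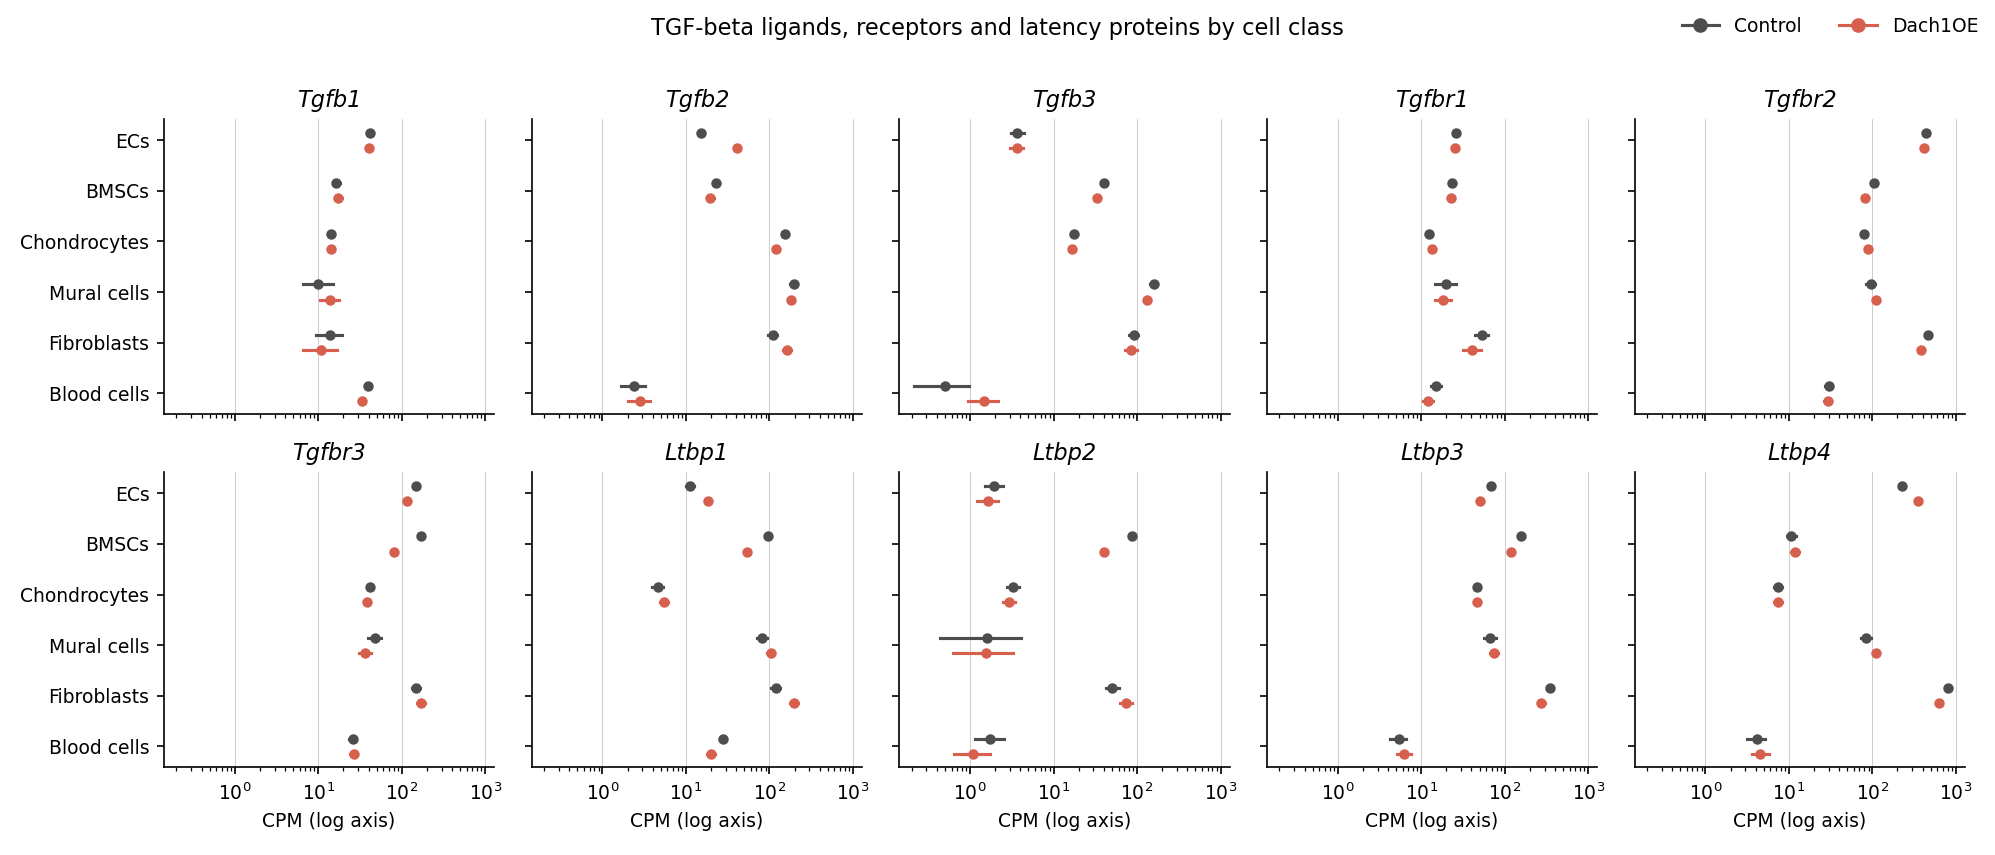
Level of each of the 10 genes in the 6 cell classes (CPM, log axis; grey Control, red Dach1OE). Points are summed UMIs over cells and bars exact Poisson 95% intervals. Fibroblasts are among the higher classes for every gene but Tgfb1, and the libraries are far apart for Tgfb2 in ECs and Tgfbr3 and Ltbp2 in BMSCs.

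Of the receptors, Tgfbr1 (chr4:47353222-47414931, plus strand), the signalling kinase partner, had a narrow range over the classes. It was highest in fibroblasts at 53.3 CPM (44.4 to 63.3) in Control and 40.8 (31.9 to 51.3) in Dach1OE, and between 12.4 and 26.2 in the other Control classes and 12.0 and 25.1 in the other Dach1OE classes. Tgfbr2 (chr9:116084293-116175360, minus strand), the ligand-binding kinase, was at 464 and 381 in fibroblasts and 438 and 418 in ECs. The other classes lay between 29.1 and 110 over both libraries, with blood cells lowest. Tgfbr3 (chr5:107106570-107289629, minus strand) was at 171 in Control BMSCs, above 149 in both Control ECs and Control fibroblasts, and at 80.9 in Dach1OE BMSCs, below 117 in ECs and 169 in fibroblasts. In chondrocytes, mural cells and blood cells it ranged from 26.1 to 47.4 over both libraries. Tgfbr3 overlaps 4 annotated genes, 3 of them unverified transcripts on its own strand and the other a pseudogene, and the RNA of each could be counted with it.

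The genes of the latent TGF-β binding proteins were each highest in fibroblasts or BMSCs in both libraries, and Ltbp4 was the one with ECs in the next place. Ltbp1 (chr17:75005568-75392512, plus strand), which binds the latent complex of every isoform and has a pseudogene (Gm6276) within its bounds on the same strand, was at 119 and 197 CPM in fibroblasts, 95.9 and 53.7 in BMSCs, 82.3 and 104 in mural cells, 27.8 and 20.2 in blood cells, 11.3 and 18.6 in ECs, and 4.60 and 5.50 in chondrocytes. The blood value came from megakaryocyte-lineage cells, at 172 and 171, against 4.66 and 4.72 in erythroid cells. Ltbp2 (chr12:84783212-84876532, minus strand), a microfibril protein that does not bind latent TGF-β, was at 86.6 and 39.9 in BMSCs and 50.7 and 74.2 in fibroblasts, and at most 3.29 in any other class. An antisense gene overlaps it.

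Ltbp3 (chr19:5740904-5758532, plus strand), which takes part in the secretion of the latent complex and in skeletal growth, was at 345 and 276 CPM in fibroblasts and 155 and 119 in BMSCs. It ranged from 46.2 to 74.9 in ECs, chondrocytes and mural cells, and was at 5.35 and 6.21 in blood cells. Ltbp4 (chr7:27305136-27337692, minus strand), which also has a part in assembling elastic fibres, was at 810 and 633 in fibroblasts, 226 and 349 in ECs and 83.1 and 111 in mural cells. The remaining classes held between 4.10 and 11.9, a range that includes the depleted blood cells.

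Against all other gated cells, 9 of the 10 genes were at least 1.5-fold higher in fibroblasts in both libraries, Tgfb1 being the exception, where 10.8% of all 16019 genes tested were. Tgfb1 was lower in fibroblasts, as were 15.9% of all genes. In BMSCs 4 of 10 were higher (Tgfb3, Ltbp1, Ltbp2 and Ltbp3) against 9.85% of all genes, and 3 lower (Tgfb2, Tgfbr2 and Ltbp4) against 34.8%. In mural cells 3 of 10 were higher (Tgfb2, Tgfb3 and Ltbp1) against 13.3%, and 3 lower (Tgfb1, Tgfbr3 and Ltbp2) against 18.2%. In ECs 4 of 10 were higher (Tgfb1, Tgfbr2, Tgfbr3 and Ltbp4) against 24.8%, and 3 lower (Tgfb2, Tgfb3 and Ltbp2) against 24.1%. In chondrocytes 7 of 10 were lower, against 41.5% of all genes, and Tgfb2 was higher, against 12.4%. In blood cells 7 of 10 were lower, against 31.4%, and Tgfb1 was higher, against 29.9%. Fibroblasts were few, and their 2403812 Control and 1766291 Dach1OE UMIs set the width of their intervals.

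Between the libraries, 3 of the 10 genes were past the limit in ECs, all higher in Dach1OE, where 13.2% of 13951 genes tested were past it in either direction and 7.15% were higher. Tgfb2 had 482 UMIs in Control and 1321 in Dach1OE, or 15.2 and 41.4 CPM, a 2.72-fold difference (log2 ratio 1.45, 95% interval 1.29 to 1.60). Ltbp1 had 358 and 593 UMIs, or 11.3 and 18.6 CPM (0.72, 0.53 to 0.91). Ltbp4 had 7154 and 11131 UMIs, or 226 and 349 CPM (0.63, 0.59 to 0.67). Each of these genes was thus higher in the Dach1OE ECs, against a median log2 ratio of all genes in ECs of 0.04. With the EC subtypes described below weighted equally, the log2 ratios were 0.40, 0.50 and -0.05, none of them past the limit. Below the limit, Tgfbr3 was at 149 and 117 CPM (-0.35, -0.42 to -0.29) and Ltbp3 at 68.8 and 50.2 (-0.45, -0.55 to -0.36). Tgfb1, Tgfb3, Tgfbr1 and Ltbp2 had intervals that included 0, and Tgfbr2 had a log2 ratio of -0.07.

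Cells with Xist UMIs and cells with Y-linked UMIs were taken as the female and the male mouse of each library. Of the ECs, 3697 in Control and 3950 in Dach1OE had neither, 321 and 320 had both, and these were left out. Tgfb2 went from 15.9 to 40.7 CPM in ECs with Xist (log2 ratio 1.35, 1.10 to 1.62) and from 10.4 to 38.3 in ECs with Y-linked UMIs (1.88, 1.54 to 2.22). The log2 ratios of Ltbp1 were 0.77 and 0.94 and those of Ltbp4 0.56 and 0.91. Tgfbr3 had -0.23 and -0.50, and Ltbp3 had -0.51 and -0.31. These 5 of the 9 genes with enough UMIs had the same direction in both pairs of mice with all intervals off 0, as had 24.4% of all 11550 genes tested (14.2% higher and 10.2% lower). In this comparison mouse and sex cannot be told apart.

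The mix of EC subtypes differed between the libraries, and the values below stand beside it. Sinusoidal bone marrow ECs (bmECs) were 46.2% of Control and 9.57% of Dach1OE ECs, metaphyseal ECs (mpECs) 15.9% and 16.3%, arterial ECs (aECs) 4.19% and 11.9%, and ECs with the remodelling-vessel markers (rECs) 4.99% and 4.81%. The study reports more remodelling (type R) vessels in stained Dach1OE femurs. The rECs here were gated by markers and need not be the study's rEC cluster, so their share does not measure those vessels. Capillary ECs with Scgb3a1 were 13 cells in Control and 1660 in Dach1OE, so their Control levels are not given. Of the ECs, 23.6% and 32.8% reached no subtype or lay too near another. Of all genes tested, 14.9% were past the limit in aECs, 11.6% in rECs and 8.40% in proliferating ECs, the subtypes in which any of the 10 genes were. The subtypes were set by a score with a margin, so they are ranges of a score. The bmEC markers include Stab2, Flt4 and Gpr182, which the study reports as lower in Dach1OE ECs. The aEC markers include Sox17, which it reports as higher. A change of marker level can thus move a cell between subtypes, and the mix values below cannot tell this from a change of mix. Against the rest of their class, 5 of 6 mpEC markers and 3 of 4 Scgb3a1 EC markers were more than 1.5-fold higher in either library.

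Tgfb2 was an arterial gene among ECs. It was at 168 CPM in Control aECs and 203 in Dach1OE aECs (log2 ratio 0.27, 0.06 to 0.49), at 29.2 and 61.0 in rECs (1.06, 0.48 to 1.67), at 8.10 and 10.7 in mpECs, and at 3.08 and 5.03 in bmECs. Scgb3a1 ECs held 7.19 in Dach1OE. The aECs thus held 45.9% of all Tgfb2 UMIs of Control ECs and 61.7% of those of Dach1OE ECs, from 4.15% and 12.6% of the UMIs of all genes. With the Control levels of each subtype and the Dach1OE mix, the computed log2 ratio of Tgfb2 was 1.10, against 1.45 measured. In this and the other mix values of ECs, Scgb3a1 ECs (17.0% of the UMIs of Dach1OE ECs) were joined to the cells of no subtype and took the Control level of that joint group. With Scgb3a1 ECs left out of both libraries, a choice made after the values were seen, the mix gave 1.26 for Tgfb2, against 1.67 measured. Without aECs the measured log2 ratio of Tgfb2 was 1.08 (0.86 to 1.30), a comparison added after the values were seen. Leaving out aECs does not even out the rest of the mix, in which bmECs were far fewer in Dach1OE. ECs of no subtype held 89 Tgfb2 UMIs of 6338366 in Control and 246 of 9253789 in Dach1OE, a higher share. Proliferating ECs were about level, with 50 of 2813775 and 70 of 3873109.

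Ltbp4 was an arterial and remodelling-vessel gene, at 1180 and 1387 CPM in aECs and 1251 and 1001 in rECs, against 226 and 186 in mpECs and 81.7 and 60.7 in bmECs. The log2 ratio within a subtype was 0.23 (0.15 to 0.31) in aECs, -0.32 (-0.43 to -0.21) in rECs, -0.28 (-0.40 to -0.15) in mpECs and -0.43 (-0.67 to -0.20) in bmECs. The higher class level of Ltbp4 was therefore seen within aECs only, among these 4 subtypes. Of Ltbp4 UMIs in ECs, 21.7% in Control and 50.1% in Dach1OE were in aECs. The Dach1OE mix at Control levels gave a log2 ratio of 0.66, against 0.63 measured (0.79 against 0.83 with Scgb3a1 ECs left out), and without aECs the ratio was 0.11 (0.06 to 0.17).

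Ltbp1 in ECs was at 41.8 and 61.7 CPM in aECs (log2 ratio 0.56, 0.14 to 1.01) and 43.8 and 66.3 in rECs (0.60, 0.09 to 1.12), and at 6.54 to 8.26 in bmECs and mpECs over both libraries. The mix at Control levels gave 0.54, against 0.72 measured (0.58 against 0.90 with Scgb3a1 ECs left out). Without aECs the log2 ratio was 0.31 (0.08 to 0.54), and without aECs and rECs 0.18 (-0.08 to 0.44), an interval that includes 0. Tgfbr3 was lowest in aECs, at 194 and 199 in bmECs, 171 and 88.2 in rECs (-0.96, -1.30 to -0.62), 87.0 and 70.7 in mpECs, 34.9 and 29.8 in aECs, and 196 in the Scgb3a1 ECs of Dach1OE. Its mix value was -0.36, against -0.35 measured, and with Scgb3a1 ECs left out -0.42, against -0.57. In Control, bmECs held 62.7% of the Tgfbr3 UMIs of ECs, and in Dach1OE Scgb3a1 ECs held 28.5% and bmECs 14.9%.

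Tgfbr2 was also highest in aECs, at 966 CPM in Control and 675 in Dach1OE (log2 ratio -0.52, -0.61 to -0.42), against 429 and 410 in bmECs, 427 and 357 in mpECs and 406 and 390 in rECs. Here the mix gave 0.13, where -0.07 was measured (0.16 and -0.08 with Scgb3a1 ECs left out). Tgfb1 was lower in aECs (22.8 and 29.4) and rECs (21.9 and 25.6) than in bmECs (44.3 and 43.4) and mpECs (45.4 and 53.5), whereas Tgfb2 was higher in aECs and rECs than in those. The Control levels of Tgfb1 in aECs and rECs rest on 30 and 27 UMIs. Ltbp3 was lower in the Dach1OE aECs (59.2 and 35.3, -0.75, -1.15 to -0.33), mpECs (93.6 and 66.3, -0.50, -0.70 to -0.29) and proliferating ECs (50.5 and 31.0, -0.70, -1.07 to -0.34). Of these, aECs and proliferating ECs were past the limit. Ltbp3 was at 58.2 and 59.2 in bmECs and 73.8 and 70.1 in rECs, where the intervals of the log2 ratio included 0, and at 40.4 in the Scgb3a1 ECs of Dach1OE.

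**Figure D2:**
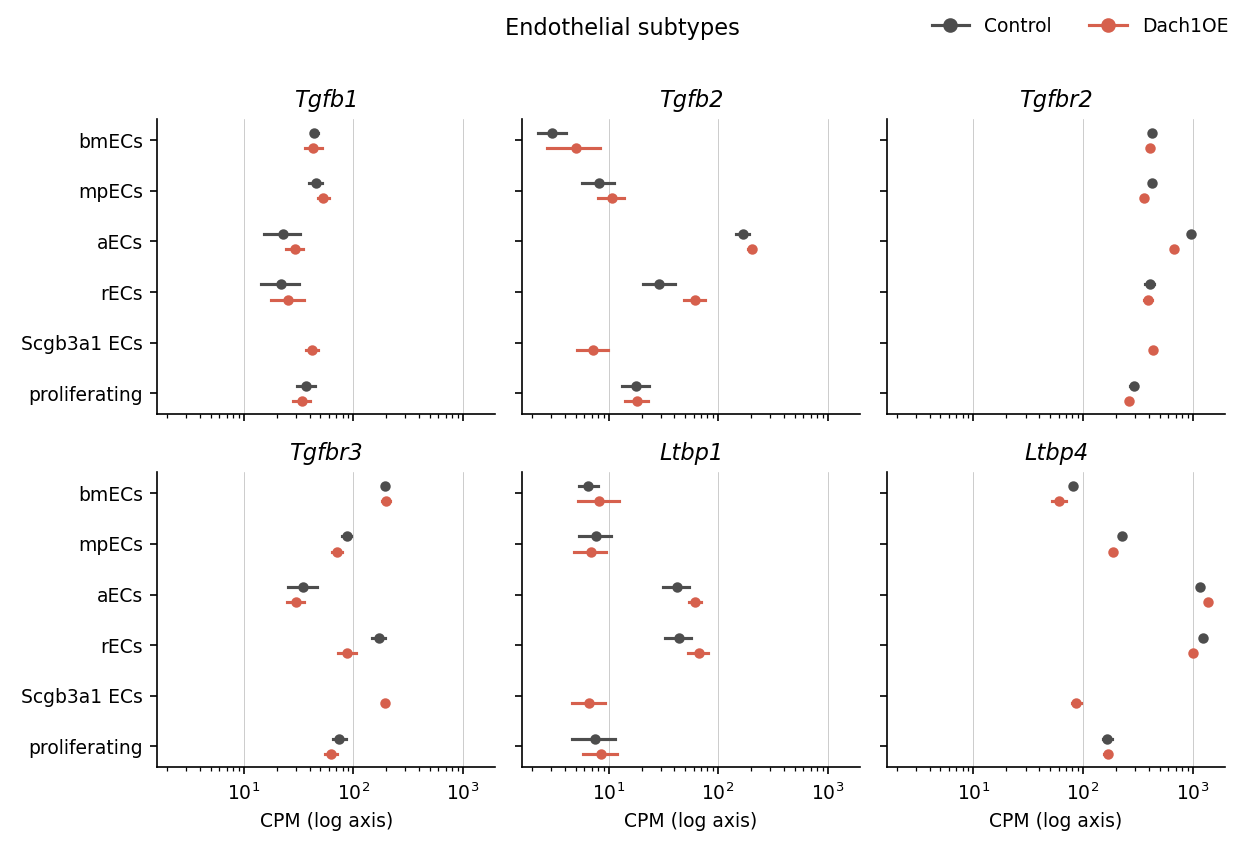
Level of 6 genes in endothelial subtypes (CPM, log axis; grey Control, red Dach1OE; bars exact Poisson 95% intervals). Tgfb2 and Ltbp4 are high in aECs and rECs and low in bmECs, Tgfbr3 is low in aECs, and Scgb3a1 ECs are drawn for Dach1OE only, since Control held 13 such cells.

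Within the Dach1OE library, ECs with Dach1 UMIs (3620 cells, median 3461.5 UMIs) were set beside ECs without (5751 cells, median 2516 UMIs). Tgfb2 was at 46.2 CPM in the former and 37.4 in the latter (log2 ratio 0.31, 0.15 to 0.46), and Ltbp3 at 43.5 and 55.8 (-0.36, -0.51 to -0.21). For the other 8 genes the interval included 0, among them Ltbp4 (0.05) and Tgfbr3 (-0.07). A cell without a Dach1 UMI may still express it, since detection goes with depth.

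In BMSCs, 3 of the 10 genes were past the limit, all lower in Dach1OE, where 14.7% of 13780 genes tested were past it in either direction and 13.5% were lower. Tgfbr3 had 4420 UMIs in Control and 2071 in Dach1OE, or 171 and 80.9 CPM (log2 ratio -1.08, -1.16 to -1.01). Ltbp2 had 2234 and 1020 UMIs, or 86.6 and 39.9 CPM (-1.12, -1.23 to -1.01). Ltbp1 had 2476 and 1374 UMIs, or 95.9 and 53.7 CPM (-0.84, -0.93 to -0.74). These genes are to be read against a median of all genes in BMSCs of -0.23. Osteoblasts, with a median of 7440 and 7491 UMIs per cell, held 35.0% of the UMIs of Control BMSCs and 54.1% in Dach1OE, and their part in that median was not tested. TMM scaling, which centres most genes, raised every BMSC log2 ratio by 0.21 and left these at -0.87, -0.91 and -0.63. With the stromal subtypes described below weighted equally, they were -0.01, 0.11 and -0.39, none of them past the limit. Tgfbr2 (-0.34), Ltbp3 (-0.38) and Tgfb3 (-0.29) were below the limit and near that median.

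In cells of either mouse, Tgfbr3 had log2 ratios of -0.80 (with Xist) and -1.39 (with Y-linked UMIs), Ltbp2 of -0.64 and -1.66, and Ltbp1 of -0.72 and -0.97. Tgfbr2 and Ltbp3 too were lower in both pairs with intervals off 0, which makes 5 of 10, where 21.8% of 10513 genes were lower in this way and 25.6% went either way. The median log2 ratio of all genes in BMSCs was -0.18 in cells with Xist and -0.22 in cells with Y-linked UMIs. The pair with Y-linked UMIs differed more than the other for all 5 genes, and Ltbp2 most, at 80.3 and 51.5 CPM in cells with Xist and 86.2 and 27.3 in the others.

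**Figure D3:**
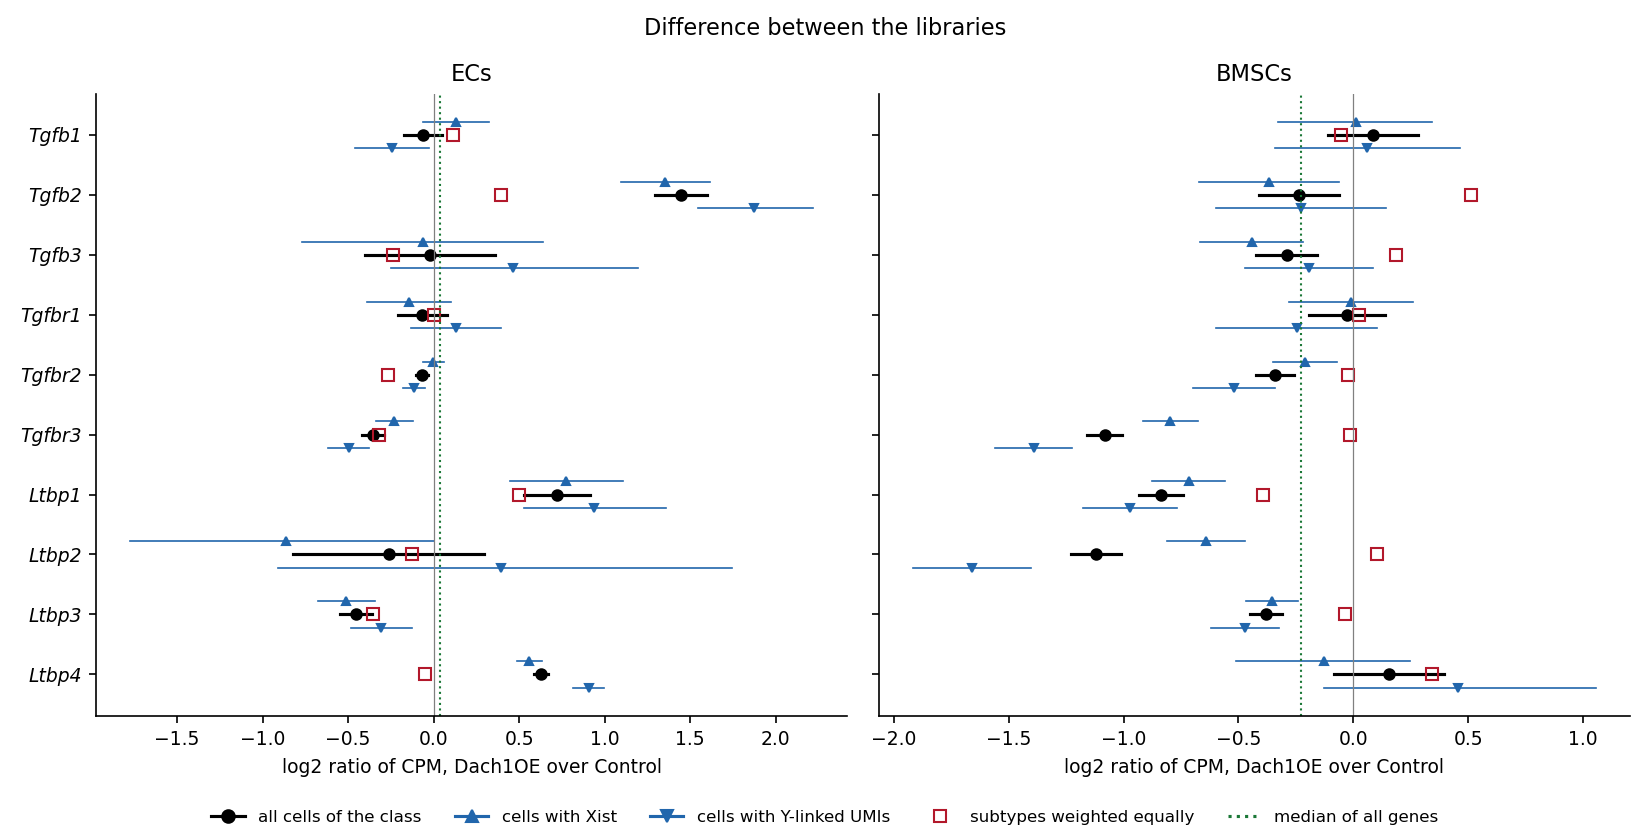
Log2 ratio of CPM, Dach1OE over Control, of the 10 genes in ECs and BMSCs (black, all cells, with exact 95% intervals; blue, cells with Xist or Y-linked UMIs; open red squares, subtypes found in both libraries weighted equally, without cells of no subtype; dotted line, median of all genes). In ECs Tgfb2, Ltbp1 and Ltbp4, and in BMSCs Tgfbr3, Ltbp1 and Ltbp2, lie apart from 0 in both sexes, and with equal weights Ltbp4 in ECs and Tgfbr3 and Ltbp2 in BMSCs lie near 0.

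The stromal mix differed too. Diaphyseal marrow stromal cells (dpMSCs), the Lepr and Cxcl12 cells of the marrow, were 40.7% of Control and 18.8% of Dach1OE BMSCs, osteoblasts (OBs) 21.6% and 40.8%, metaphyseal stromal cells (mpMSCs) 10.4% and 8.92%, osteocytes (OCYs) 3.48% and 5.27%, and septoclasts 4.23% and 5.56%. Of the 5 OB markers, 4 in Control and 3 in Dach1OE were more than 1.5-fold higher in OBs than in the other BMSCs. Of all genes tested, 3.89% were past the limit in mpMSCs, 3.92% in OBs, 4.89% in septoclasts and 8.01% in proliferating BMSCs, the subtypes in which any of the 10 genes were. Tgfbr3 and Ltbp2 were dpMSC genes. Tgfbr3 was at 517 and 580 CPM in dpMSCs (log2 ratio 0.17, 0.08 to 0.25), 102 and 91.2 in mpMSCs, 119 and 89.0 in septoclasts, and 9.87 and 6.50 in OBs (-0.60, -1.04 to -0.16). The OB levels rest on 89 and 90 UMIs, and whether stray RNA of dpMSCs adds to them was not tested. Ltbp2 was at 301 and 339 in dpMSCs (0.17, 0.06 to 0.29), 9.73 and 16.9 in mpMSCs, 24.9 and 16.2 in septoclasts, and 1.44 and 1.30 in OBs. Both genes were thus higher within Dach1OE dpMSCs while lower in the class.

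The dpMSCs held 77.9% of the Tgfbr3 UMIs of Control BMSCs and 70.4% in Dach1OE, and 89.7% and 83.5% of those of Ltbp2, from 25.8% and 9.82% of the UMIs of all genes. The Dach1OE mix at Control levels gave log2 ratios of -0.99 for Tgfbr3 and -1.19 for Ltbp2, against -1.08 and -1.12 measured. For Ltbp1 it gave -0.51, against -0.84 measured. With dpMSCs left out, a comparison added after the values were seen, the log2 ratios were -0.94 (-1.08 to -0.79) for Tgfbr3, -0.73 (-1.02 to -0.44) for Ltbp2 and -0.59 (-0.71 to -0.47) for Ltbp1, each still past the limit. The rest of the mix still differed, as OBs, low in all 3 genes, were 21.6% of Control and 40.8% of Dach1OE BMSCs. These ratios are thus not values within a subtype. Ltbp1 was at 192 and 165 CPM in dpMSCs (-0.22, -0.38 to -0.06), 143 and 85.1 in mpMSCs (-0.75, -1.06 to -0.44), 124 and 96.0 in OCYs (-0.38, -0.71 to -0.04) and 29.6 and 25.8 in OBs. It was lower in Dach1OE within each of these 4 groups, and the interval left out 0 in all but OBs. Septoclasts were about level, with 51 Ltbp1 UMIs of 921668 in Control and 54 of 988158 in Dach1OE. Proliferating BMSCs were lower, with 88 of 1603480 and 47 of 1555162.

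Some of the other genes were highest in other stromal groups, while Ltbp3 was about level in dpMSCs, mpMSCs and septoclasts. Tgfb3 was highest in mpMSCs, at 122 CPM in both libraries, and in septoclasts, the matrix-degrading cells of the chondro-osseous border, at 93.3 and 128. It was at 53.6 and 53.3 in dpMSCs and 9.31 and 13.2 in OBs. Tgfb2 was at 70.4 and 89.2 in mpMSCs, 41.3 and 46.2 in dpMSCs and 3.77 and 4.48 in OBs. In septoclasts Tgfb2 was at 34.7 and 83.0, from 32 and 82 UMIs (1.26, 0.65 to 1.89). Tgfbr2 was highest in OCYs, the cells buried in bone, at 336 and 297, against 46.9 and 42.3 in OBs, from which OCYs arise. Ltbp3 was at 245 and 264 in dpMSCs, 250 and 260 in mpMSCs, 286 and 244 in septoclasts and 66.5 and 67.7 in OBs.

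**Figure D4:**
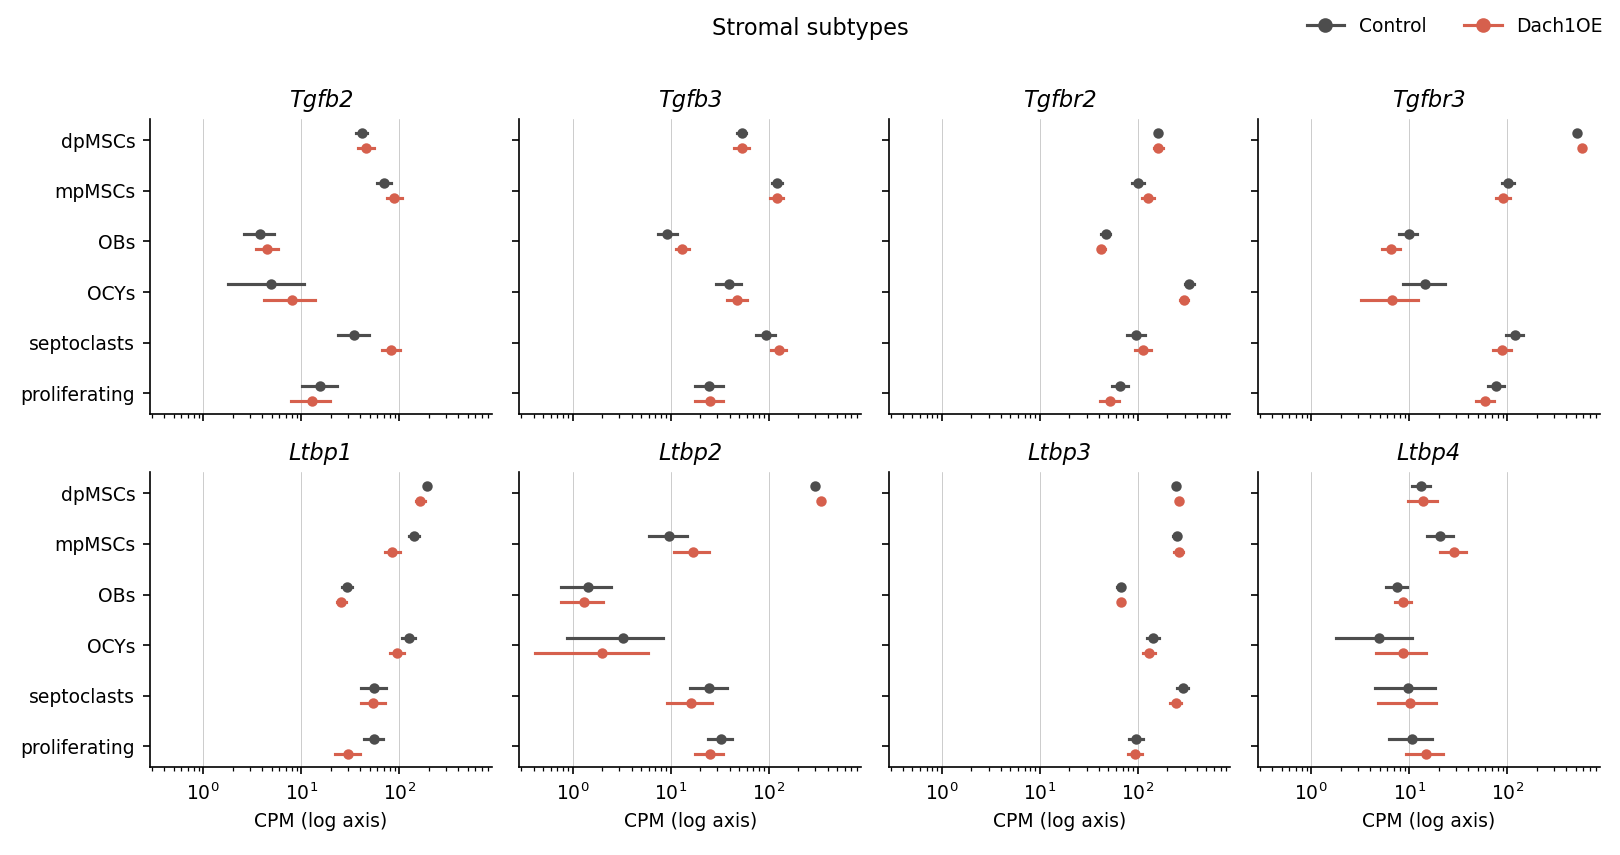
Level of 8 genes in stromal subtypes (CPM, log axis; grey Control, red Dach1OE; bars exact Poisson 95% intervals). Tgfbr3 and Ltbp2 are highest in dpMSCs, Tgfbr2 in OCYs, and the libraries are past the limit for Tgfb2 in septoclasts, Ltbp1 in mpMSCs and proliferating cells, and Tgfbr3 in OBs.

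In the other classes, 1 gene was past the limit. In fibroblasts it was Ltbp1, with 286 UMIs in Control and 347 in Dach1OE, or 119 and 197 CPM (log2 ratio 0.72, 0.49 to 0.95), where 8.29% of 8192 genes were past it. Periosteal cells were 55.7% of Control and 75.0% of Dach1OE fibroblasts, and within them Ltbp1 was at 158 and 230 (0.54, 0.27 to 0.80). Ltbp4 was at 1283 and 740 in periosteal fibroblasts (-0.79, -0.91 to -0.68; 7.57% of genes were past the limit there) and 279 and 296 in tendon fibroblasts. In both pairs of mice Ltbp1 and Ltbp2 were higher and Ltbp4 lower in Dach1OE fibroblasts with intervals off 0, as 7.12% of 2949 genes were one way or the other. In tendon fibroblasts Tgfb2 was at 68.0 and 123 (0.85, 0.30 to 1.39) and Ltbp2 at 53.4 and 89.0 (0.74, 0.10 to 1.36), both past the limit, where 7.64% of genes were. Tgfb2 had a log2 ratio of 0.56 (0.31 to 0.80) in fibroblasts.

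None of the 10 genes was past the limit in chondrocytes, where 5.11% of 14716 genes were, in mural cells, where 5.90% of 9836 were (9 of the 10 genes had enough UMIs), or in blood cells, where 3.71% of 12282 were (8 of the 10). No p-value exists for such a count, with 1 library per group. The value of Tgfb2 in chondrocytes was -0.38 (-0.43 to -0.32), lower in both pairs of mice with intervals off 0, as were 4.84% of 12180 genes, and -0.32 in the prehypertrophic and -0.38 in the hypertrophic group. Mural cells had -0.09 for Tgfb2 and -0.26 for Tgfb3. Ltbp1 in mural cells was at 127 and 196 CPM in smooth muscle cells (0.62, 0.34 to 0.91), past the limit, where 6.34% of genes were, and 24.4 and 25.6 in pericytes. In mural cells as a class its log2 ratio was 0.33 (0.09 to 0.58), but 0.41 in cells with Xist and -0.24 in cells with Y-linked UMIs, both with intervals that included 0, and 1.51 in cells with under 10% mitochondrial UMIs.

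Within the subtypes of chondrocytes and blood cells some genes were past the limit. In the upper growth plate group, where 4.0% of genes were past it, Tgfbr1 was at 8.85 and 18.8 CPM (1.09, 0.38 to 1.85), Tgfb3 at 23.6 and 15.3 (-0.62, -1.16 to -0.08) and Ltbp4 at 27.0 and 11.1 (-1.28, -1.85 to -0.71). In proliferating chondrocytes (3.98%), Tgfb3 was at 12.8 and 6.77 (-0.92, -1.40 to -0.46). In erythroid cells (3.13%), Tgfbr2 was at 5.70 and 3.07 (-0.89, -1.65 to -0.16). In myeloid progenitors (4.17%), Tgfb1 was at 38.2 and 58.4 (0.61, 0.04 to 1.20) and Tgfbr3 at 26.6 and 46.9 (0.82, 0.15 to 1.51). These values rest on few UMIs. Tgfbr1 had 21 and 81 in the upper group, Tgfbr2 44 and 26 in erythroid cells, and Tgfbr3 30 and 53 in myeloid progenitors. Whether stray RNA of other cells adds to them was not tested.

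A list of 27 other genes of the pathway, chosen by function, was read in the same way by class. No mix value was computed for these genes, so their ratios also hold the difference in the mix of subtypes. In ECs 25 had enough UMIs, 2 were past the limit and higher and 1 lower, beside 13.2% of all genes past it in either direction and 7.15% higher, with a median log2 ratio of -0.01 over the list and 0.04 over all genes. Smad7, the inhibitory Smad that TGF-β and BMP signals induce, was at 25.1 and 58.5 CPM (1.22, 1.10 to 1.34), and Aspn, a proteoglycan that binds TGF-β, at 8.89 and 13.9 (0.65, 0.43 to 0.87). Aspn is also 1 of the markers by which BMSCs were gated. It was at 750 and 700 CPM in mural cells and 947 and 1341 in fibroblasts. Whether stray RNA of such cells adds to its EC level was not tested. Tgfbi, a matrix protein induced by TGF-β, was at 47.4 and 26.9 (-0.82, -0.94 to -0.70). Endoglin (Eng), the co-receptor of ECs, was at 486 and 472 (-0.04), Acvrl1, the endothelial type I receptor, at 104 and 125 (0.26), Skil, an inhibitor of Smads, at 57.9 and 65.1 (0.17), and Ctgf, a matricellular target, at 197 and 151 (-0.38). Bhlhe40, the other target of the list, was at 51.0 and 59.8 (0.23, 0.13 to 0.33), so that the targets did not share a direction.

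In BMSCs 26 of the 27 had enough UMIs, none was higher past the limit and 5 were lower, beside 14.7% of all genes past it in either direction and 13.5% lower, with a median of -0.245 over the list and -0.23 over all genes. The 5 were Fbn1 (fibrillin-1, the anchor of LTBPs), at 485 and 239 CPM (-1.02), Acvrl1 at 12.5 and 6.09 (-1.03), Tgfbi at 44.4 and 24.3 (-0.87), Ctgf at 232 and 129 (-0.84) and Ski, an inhibitor of Smads, at 135 and 89.8 (-0.59). These are class levels, in a class with fewer dpMSCs and more OBs in Dach1OE. Bhlhe40, the other target of the list, was at 11.4 and 13.7 (0.27, 0.04 to 0.50), so that the targets did not share a direction here either. Of the genes named in any case, Smad7 had -0.37, Eng -0.49 and Skil -0.05. In mural cells 4 of 24 were past the limit and higher and 1 lower, where 5.90% of all genes were past it. In fibroblasts 1 of 24 was higher and 2 lower, beside 8.29%. In chondrocytes 1 of 27 was higher and 1 lower, beside 5.11%, and in blood cells none of 24 was past it, beside 3.71%.

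**Figure D5:**
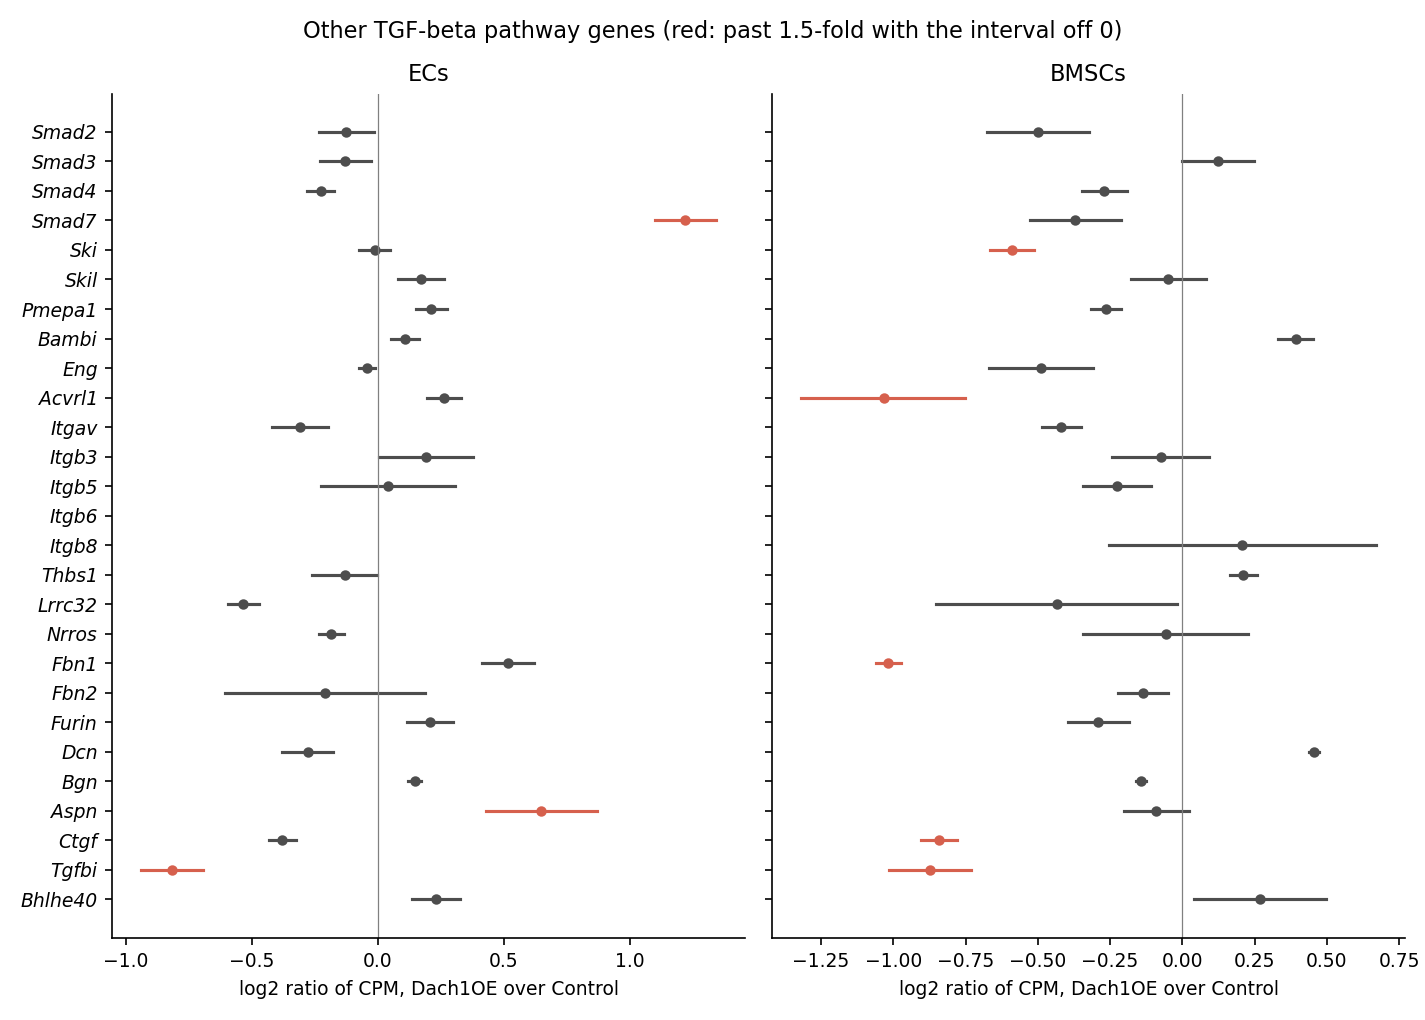
Log2 ratio of CPM, Dach1OE over Control, of the other TGF-β pathway genes in ECs and BMSCs, with exact 95% intervals, for genes with at least 50 UMIs over both libraries (red, past the limit). In ECs Smad7 (1.22) and Tgfbi (-0.82) stand on opposite sides of 0.

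Over 23 cell groups of the Control library, each class split into subtypes, the genes whose levels ran most like those of a member were found among 11916 genes by Pearson's r of log2(CPM + 1), given as a description, since the groups share a library and cells of 1 class. Ltbp3 ran with Acvr1 (r = 0.94), Pmepa1 (0.94) and Timp2 (0.94), Ltbp4 with Mn1 (0.94), Fbln2 (0.94) and Itga5 (0.92), and Ltbp2 with Msc (0.92), Ptgfr (0.89) and Aldh1a2 (0.89). For Ltbp1 they were Lhfp (0.86), Rhbdl3 (0.81) and Rnf150 (0.80). Tgfb3 ran with Setbp1 (0.94), Tead3 (0.93) and Kctd15 (0.93), Tgfb2 with Ndn (0.89), Mgp (0.88) and Zbtb20 (0.86), and Tgfb1 with Ptpn18 (0.88), Dennd2d (0.85) and Tmbim4 (0.83). The receptor genes had Spag9 (0.91), Tmem184b (0.89) and Tcf4 (0.88) nearest to Tgfbr2, Asmt (0.84), Fmo1 (0.82) and Fut11 (0.82) nearest to Tgfbr3, and Dpy19l3 (0.83), Calhm2 (0.82) and Cry1 (0.80) nearest to Tgfbr1.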

How the data were processed

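Cells of femur and tibia were profiled on the BD Rhapsody system in 1 Control and 1 Dach1OE library. Per the file headers the authors' pipeline was BD's Rhapsody WTA Analysis Pipeline (version 1.11), run on GRCm38 with GENCODE vM19. The deposited counts are whole numbers without normalization, of reads, of UMIs as read and of UMIs corrected for sequencing errors (RSEC). Reads in introns were included, so a value also holds unspliced RNA and can hold RNA of an overlapping gene. Whether counting used strand is not given in the sources used here. The corrected UMIs were the measure. The study's filters on genes per cell and mitochondrial UMIs were applied, leaving cells with 500 to 6000 genes in which mitochondrial UMIs made up less than 25%. The study also removed haematopoietic cells expressing Ptprc and genes found in very few cells, steps that were not applied here.

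A cell took a class where at least 3 of 8 markers of a class list were detected, at least 2 more than for any other class. Within a class it took the subtype with the highest mean scaled marker level (at least 2 markers, margin 0.25), or was called proliferating with at least 3 of 8 cycle markers. These thresholds were settled after the data were seen, and the names are rebuilt, as no annotation of cells was used. The members, marker lists and gene lists were chosen with earlier results of these data known. Doublets marked by Scrublet (6.53% and 6.60% of kept cells) were kept, and left out in an alternative.

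UMIs were summed per library and group and scaled to CPM. Ratios have exact conditional binomial 95% intervals, and genes needed at least 50 UMIs over both libraries. All 10 members were named in every class. Of the other pathway genes, those past the limit in ECs or BMSCs and 5 fixed genes were named (1 more gene of that list is not reported here), and for likeness the 3 highest correlations among genes with at least 500 UMIs. With 1 library per group no p-value was computed. Intervals cover counting error only. Scaling by TMM used edgeR 4.0.16. Python 3.11.15, scipy 1.17.1, scanpy 1.11.5 and R 4.3.3 were used. Positions come from GENCODE vM21 on GRCm38 and are 1-based. Alternatives were raw UMIs, TMM, no minimum of UMIs, stricter filters and gates, classes from 40 clusters, cells without marked doublets, cells with at least 4000 UMIs, cells of either sex, equal weights of subtypes and a 2-fold limit, and, chosen after seeing the data, classes without aECs, without aECs and rECs, or without dpMSCs, and the EC mix without Scgb3a1 ECs.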

Additional observations from a re-analysis of the deposited data

Results flagged for a closer look

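Ltbp1 moved in opposite directions in different classes under the same comparison. It was past the limit and higher in Dach1OE ECs and past it and lower in Dach1OE BMSCs, and the log2 ratio in ECs minus that in BMSCs was 1.56 (1.557). It was also past the limit and higher in Dach1OE fibroblasts, and the log2 ratio there minus that in BMSCs was 1.56 (1.561). With subtypes weighted equally, Ltbp1 was at 0.50 in ECs, -0.39 in BMSCs and 0.49 in fibroblasts, none of them past the limit. The Dach1OE mix at Control levels gave 0.54 in ECs, -0.51 in BMSCs and 0.19 in fibroblasts. Without aECs and rECs, Ltbp1 in ECs was at 0.18 (-0.08 to 0.44). Neither difference was tested, as there was 1 library per group. The directions were the same in cells with Xist and in cells with Y-linked UMIs.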

How the results depend on the processing

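The count of genes past the limit in ECs stayed at 3, or within 1.5 times of it, in 11 of 15 alternatives, and was 1 with a 2-fold limit, 0 with subtypes weighted equally, and 1 without aECs and 1 without aECs and rECs (Tgfb2 in each). In BMSCs it stayed so in 13 of 14 and was 0 with equal weights. In chondrocytes it was 0 in 10 of 13 and 1 with classes from clusters, in cells with Xist and with equal weights. In mural cells it was 0 in 8 of 13, 2 under 10% mitochondrial UMIs, and 1 with at least 1000 genes per cell, a stricter gate, classes from clusters and in cells with Xist. With equal weights Ltbp4 in ECs changed sign to -0.05 (-0.051) and Ltbp2 in BMSCs to 0.11 (0.105), and Tgfb2 in ECs was at 0.40, Ltbp1 at 0.50, and Tgfbr3 and Ltbp1 in BMSCs at -0.01 and -0.39. Equal weights give each subtype found in both libraries the same part, and also leave out the cells of no subtype (20% of the UMIs of Control ECs and 29% of Dach1OE ECs) and the Scgb3a1 ECs (17% in Dach1OE), so more than the mix changes. The cause of these changes was not tested. In fibroblasts the count was 1 in 6 of 13 alternatives and from 0 to 5 in the others, and Ltbp1 was below the limit with equal weights (0.49). Tgfb2 in ECs ranged from 0.40 to 1.88, Ltbp1 from 0.18 to 0.94 and Ltbp4 from -0.05 to 0.91 over 15 alternatives. No paired analysis was possible because each group had 1 library, and the values matched by sex are descriptions with no test. Depth limits Tgfb3 and Ltbp2 in ECs and blood cells and Ltbp2 in mural cells, where few UMIs leave wide intervals.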
